A study of Homo sapiens with 24 samples.

Results

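The proneural bHLH (basic helix-loop-helix) and OLIG transcription factors measured here were NEUROG1, NEUROG2, NEUROD1, NEUROD2, NEUROD4, NEUROD6, OLIG1, OLIG2 and ATOH8. They were chosen by name, with earlier results of these data known, and found through the RefSeq accession of their probe on the array. They made up 9 of the 21743 genes that the array names. Each had 1 probe on 1 spot, none was flagged or saturated, and all 9 were among the 21239 genes tested. The cells were LUHMES, an established human mesencephalic line held in division by a tetracycline-controlled oncogene and differentiated into dopaminergic neurons, here as free-floating 3D aggregates in medium with cAMP, GDNF, tetracycline and N2. From day 7 the aggregates were given rotenone, an inhibitor of mitochondrial complex I, at 50 nM (12 h or 24 h) or at 100 nM (24 h), or the solvent DMSO in the amount of the higher dose. Each of these 4 treatments was collected at the end of exposure, called day 8, or on day 15, which makes 8 groups. Day 15 came 7 days after the rotenone or DMSO was washed out. The study did not measure whether rotenone stayed bound within the aggregates. Each group had 3 arrays from replicate wells of 1 line, 1 on each of 3 slides. The p-values therefore measure the spread between arrays, in which wells and slides are mixed, and the main fit does not pair arrays by slide.

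Proneural factors are transcription factors that drive neural progenitors out of division and into neuronal differentiation. They pair with E proteins such as TCF4 and bind E-boxes, short sites of the form CANNTG. The neurogenins act early, switch on NEUROD genes and the Notch ligand DLL1, and are held down by HES and HEY repressors downstream of Notch and by Id proteins, which capture E proteins. OLIG1 and OLIG2 are relatives best known from the oligodendrocyte and motor neuron lineages and from ventral neural progenitors. ATOH8 is a more distant relative of the atonal group.

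RefSeq promoter sequences (GRCh38.p14) were at hand for 7 of the 9 genes, and the 250 bases before the transcription start are printed for 4 of them. NEUROG1, NEUROD2 and NEUROD4 are shown because each fell between the days, and NEUROG2 because it is the closest relative of NEUROG1 and moved little. Capitals mark E-boxes (CANNTG, which reads the same on both strands). NEUROG1 lies at chr5:135535965-135536214 (minus strand), NEUROG2 at chr4:112516181-112516430 (minus strand), NEUROD2 at chr17:39607921-39608170 (minus strand) and NEUROD4 at chr12:55019724-55019973 (plus strand).
NEUROG1: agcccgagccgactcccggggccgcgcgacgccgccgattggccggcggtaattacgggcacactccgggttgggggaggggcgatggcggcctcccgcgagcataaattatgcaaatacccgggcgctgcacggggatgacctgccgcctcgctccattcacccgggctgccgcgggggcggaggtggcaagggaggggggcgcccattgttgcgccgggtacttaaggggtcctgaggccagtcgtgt
NEUROG2: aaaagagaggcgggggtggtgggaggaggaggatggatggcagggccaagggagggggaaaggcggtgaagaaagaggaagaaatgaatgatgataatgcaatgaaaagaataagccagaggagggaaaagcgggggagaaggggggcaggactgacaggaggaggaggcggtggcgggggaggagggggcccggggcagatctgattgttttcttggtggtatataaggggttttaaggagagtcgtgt
NEUROD2: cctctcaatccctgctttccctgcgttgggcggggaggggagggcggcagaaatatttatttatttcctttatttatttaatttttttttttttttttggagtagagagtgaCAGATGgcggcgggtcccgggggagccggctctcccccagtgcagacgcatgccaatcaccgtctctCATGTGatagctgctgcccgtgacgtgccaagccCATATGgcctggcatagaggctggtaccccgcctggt
NEUROD4: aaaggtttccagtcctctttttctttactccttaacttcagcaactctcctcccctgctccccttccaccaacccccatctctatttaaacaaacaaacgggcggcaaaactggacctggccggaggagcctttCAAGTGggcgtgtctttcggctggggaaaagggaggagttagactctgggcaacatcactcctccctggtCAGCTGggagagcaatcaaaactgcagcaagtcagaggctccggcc
The NEUROG1, NEUROG2 and NEUROD1 windows held no E-box, NEUROD4 and ATOH8 held 2 each, NEUROD2 held 3 and NEUROD6 held 4. For scale, 61.8% of 35116 promoters of the same length held at least 1 E-box and 10.4% held 3 or more. OLIG1 and OLIG2 are neighbours on chromosome 21, with 0 protein-coding genes between them in the RefSeq annotation.

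All 10 neuron markers, such as TUBB3 and MAP2, were well above background (the scanner software's mark for a spot clearly brighter than its surroundings) on every array of day 8 DMSO, as were 8 of 12 dopaminergic markers. Of 13 oligodendrocyte lineage markers 7 reached this mark there, but SOX10, a defining gene of that lineage, did so on 1 array of 3 in every group, and NKX2-2 on 0 arrays of day 8 DMSO. Slide 1, which holds replicate 1 of every group and was repeated by the authors at another time, had 67.3% to 82.4% of its spots well above background, against 50.9% to 62.4% on slides 2 and 3. Its offset was removed before testing, and values without that slide are given where they matter.

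NEUROG1, NEUROG2, NEUROD1, NEUROD4 and OLIG1 were well above background on all 24 arrays and OLIG2 on 23. NEUROD2 reached the mark on 17 arrays, namely all of day 8 and 5 of the 12 arrays of day 15. ATOH8 reached it on 14, 11 of them from day 8. The day 15 marks of both genes lay on slide 1, except for NEUROD2 on the second array after 50 nM for 24 h. NEUROD6, a factor of postmitotic neurons, reached it on 0 of 24 arrays, with log2 signals between 2.40 and 4.52, and no fold change is given for it. Below, a level is the log2 of the normalized array signal, and a difference of 1 is a 2-fold change. Levels of different genes come from different probes and are not set against each other.

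**Figure D1:**
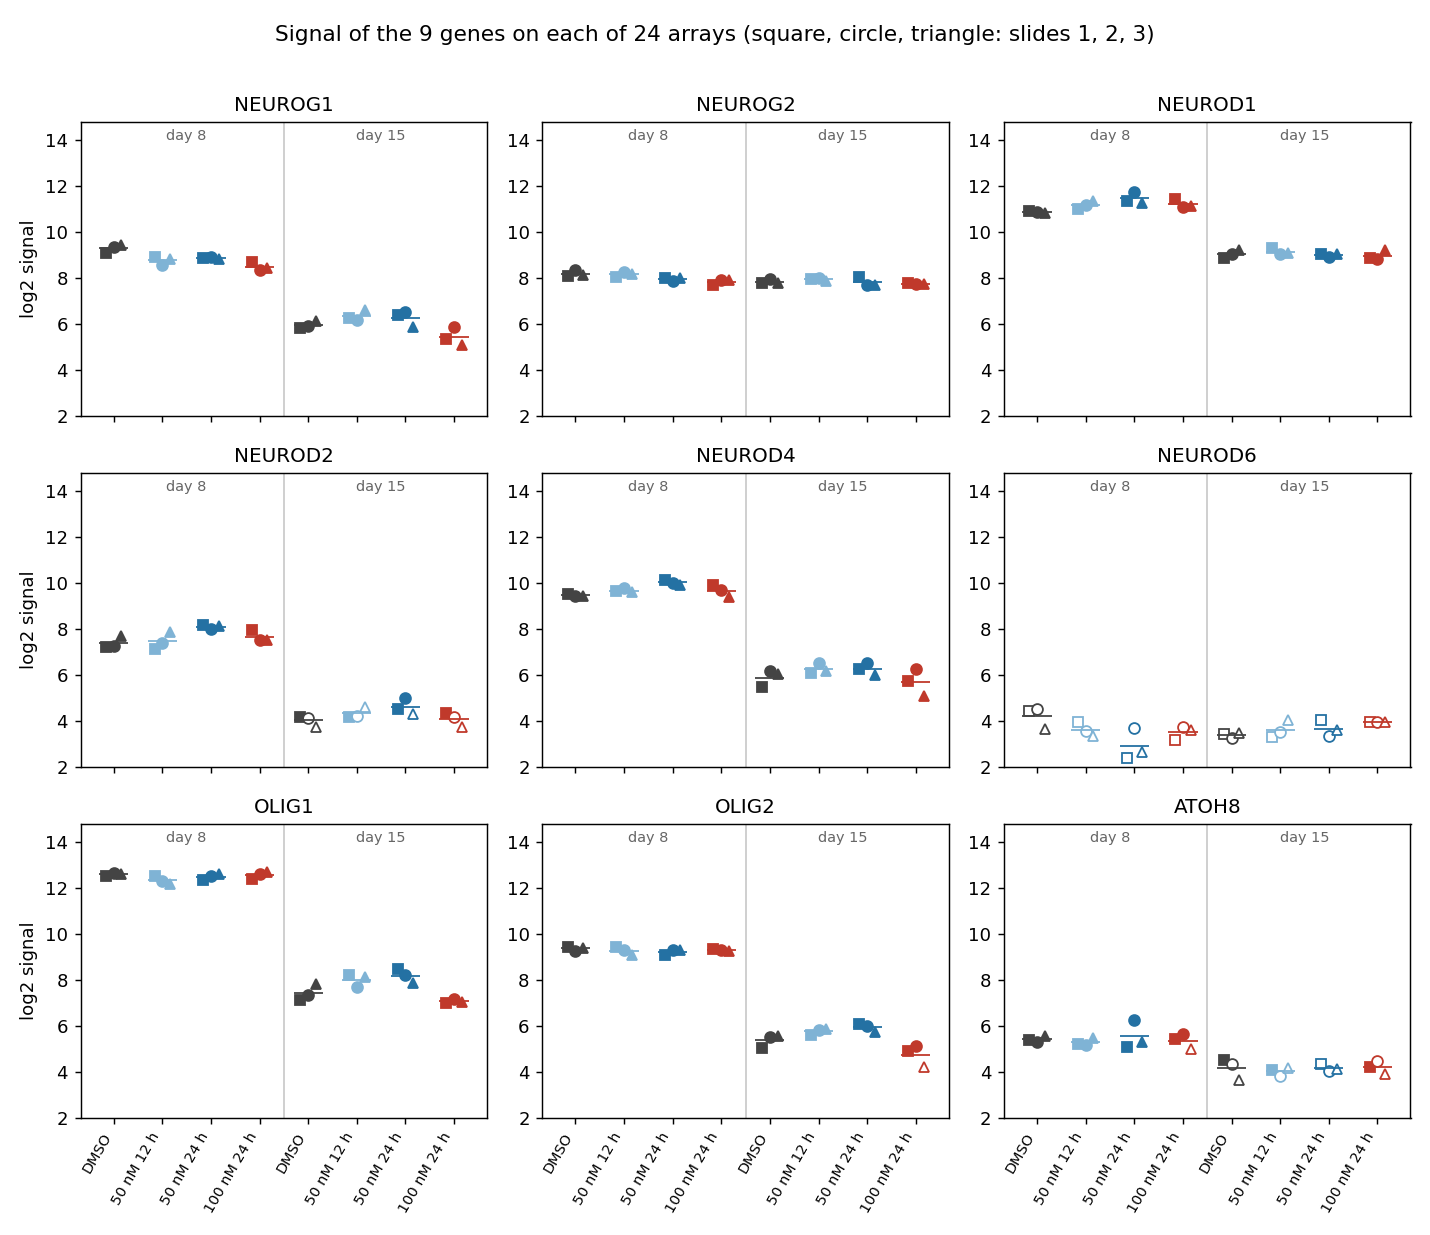
The log2 signal (vertical axis) of the 9 genes on each of the 24 arrays, by day and treatment. Squares, circles and triangles are slides 1, 2 and 3, horizontal lines are group means, and open symbols were not well above background. All genes but NEUROG2 and NEUROD6 sat lower in all 12 arrays of day 15 than in any of the 12 arrays of day 8.

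The largest differences in these genes lay between the days. From day 8 to day 15 in DMSO, OLIG1, OLIG2, NEUROG1, NEUROD1, NEUROD2, NEUROD4 and ATOH8 all fell, by between 2.39-fold and 35.8-fold, while NEUROG2 was 1.27-fold lower. A gene was called where limma gave an adjusted p (Benjamini-Hochberg, over all 21239 genes) below 0.05 and the change exceeded 1.5-fold. By that rule 8 of the 9 were called lower, against 6.38% of all genes called lower and 12.2% called in either direction; the eighth call was NEUROD6, whose signal cannot be read. The median log2 fold change of the 9 genes was -3.33 and that of all genes -0.04. Because the 9 genes were chosen with earlier results of these data known, these shares and medians do not test them as a group. In bulk RNA, fewer cells that carry a transcript and less of it per cell cannot be told apart.

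NEUROG1, which specifies neuronal fate in several progenitor zones, read 9.11, 9.34 and 9.43 in the 3 DMSO arrays of day 8 and 5.81, 5.93 and 6.13 in those of day 15. The groups were far apart and each was tight. The log2 fold change was -3.33 ± 0.19 (SE, n = 3 against 3; limma adjusted p = 2.05e-10), a 10.1-fold lower signal. NEUROG2, its sister gene, read 8.08, 8.35 and 8.15 on day 8 and 7.78, 7.97 and 7.79 on day 15. These groups did not overlap either, but the log2 fold change was -0.34 ± 0.10 (limma adjusted p = 0.018), under the fold threshold. The 95% confidence intervals of the 2 neurogenins, -3.73 to -2.94 for NEUROG1 and -0.56 to -0.13 for NEUROG2, did not overlap.

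The NEUROD genes act after the neurogenins, in cells that are leaving division or have left it. NEUROD1 read 10.92, 10.86 and 10.81 on day 8 and 8.90, 9.04 and 9.22 on day 15, a log2 fold change of -1.81 ± 0.14 (limma adjusted p = 2.32e-08). NEUROD4, a factor of neuronal commitment, read 9.52, 9.45 and 9.42 and then 5.46, 6.15 and 6.02. Its log2 fold change was -3.58 ± 0.23 (limma adjusted p = 1.72e-09). NEUROD1 thus kept a clear signal on day 15 after a 3.52-fold fall, and NEUROD4 fell 12.0-fold. NEUROD2, a factor of maturing neurons, read 7.22, 7.24 and 7.68 on day 8 and 4.18, 4.12 and 3.75 on day 15, where 1 of the 3 arrays was well above background. Its log2 fold change of -3.36 ± 0.22 (limma adjusted p = 1.52e-09) therefore ends near the limit of the measurement, and it ran from -4.40 to -1.71 over the processing alternatives.

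OLIG1 and OLIG2 moved most. OLIG1 read 12.51, 12.64 and 12.62 on day 8 and 7.12, 7.35 and 7.80 on day 15. The log2 fold change of -5.16 ± 0.17 (limma adjusted p = 2.50e-13) was at rank 3 from the bottom of all 21239 genes in this comparison. OLIG2 read 9.44, 9.28 and 9.37 and then 5.04, 5.5 and 5.54, a log2 fold change of -4.00 ± 0.18 (limma adjusted p = 1.23e-11) and rank 9. NEUROD4 and NEUROG1, both well above background on every array, ranked 12 and 19. ATOH8 read 5.39, 5.29 and 5.57 and then 4.52, 4.31 and 3.64, where 1 of 3 arrays was well above background; its log2 fold change was -1.26 ± 0.26 (limma adjusted p = 0.0014).

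**Figure D2:**
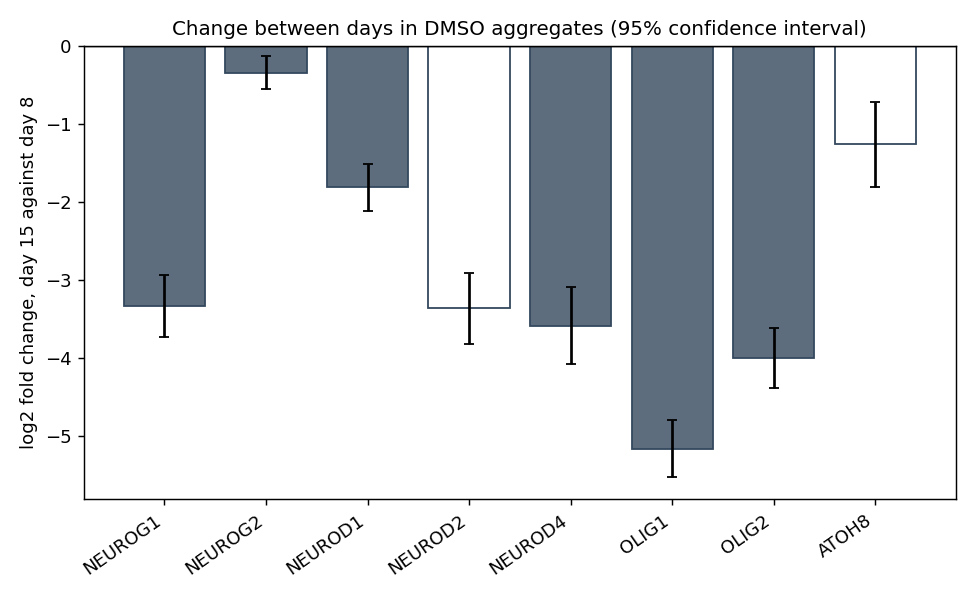
Log2 fold change from day 8 to day 15 in DMSO aggregates (vertical axis) for 8 genes (NEUROD6 left out), with 95% confidence intervals (n = 3 arrays a day). Open bars had a day 15 group with an array that was not well above background; every interval lies below 0, from NEUROG2 at -0.34 to OLIG1 at -5.16.

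The same drop stood in the rotenone groups. After 100 nM, for example, OLIG1 read 12.37, 12.62 and 12.69 on day 8 and 6.99, 7.18 and 7.03 on day 15, and NEUROG1 8.70, 8.36 and 8.45 and then 5.33, 5.87 and 5.08. In NEUROG1, NEUROD1, NEUROD2, NEUROD4, OLIG1, OLIG2 and ATOH8 alike, every array of day 15 lay below every array of day 8 whatever the treatment. Over all 4 treatments NEUROG2 overlapped between the days, at 7.71 to 8.35 on day 8 and 7.70 to 8.03 on day 15.

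Some of the genes around these factors were also called from day 8 to day 15 in DMSO. Over all genes, 12.2% were called in either direction and 6.38% were called lower. Of 7 E and Id proteins, 3 fell, all of them E proteins: TCF4 by a log2 fold change of -1.41 ± 0.11, TCF12 by -1.39 ± 0.18 and TCF3 by -0.68 ± 0.12 (limma adjusted p at most 3.62e-04). None of the 4 Id genes was called. Of 10 HES and HEY repressors 4 were called lower and 0 higher, among them HEYL (-1.44) and HES2 (-1.34); HEY2 is counted there too, but it was not well above background on any array of either day and its difference cannot be read. Of 15 other neural bHLH genes 3 were called lower. They were NHLH1 (-1.20) and NHLH2 (-0.90), both also on the list of proneural targets, and BHLHE22, which was well above background on 1 array of day 8 and 0 of day 15. Of 23 proneural target genes 8 fell and 1 rose. ST18 (-2.38), the chemokine receptor CXCR4 (-1.53) and NHLH1 fell most, and the Notch ligand DLL1 rose (0.75). The medians of these lists were -0.68, -0.38, -0.06 and -0.10, beside -0.04 over all genes.

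Markers of other states moved too between the days, where 12.2% of all genes were called in either direction. Of the 7 progenitor and dividing cell markers tested, TOP2A, CCNB1 (-1.34) and MKI67 (-0.71) fell and VIM (0.67) rose. TOP2A, a topoisomerase of dividing cells, was well above background on 3 of 3 arrays on day 8 and on 0 on day 15, and SOX2, a progenitor factor, on 0 arrays of either day. Of 12 dopaminergic markers, TH (-2.94), the enzyme that makes the dopamine precursor, and SLC6A3 (-2.07), the dopamine transporter, fell, while NR4A2 (1.57), KCNJ6 (1.16) and LMX1B (0.74) rose. None of 10 neuron markers was called, and their median was 0.25. None of the 12 oligodendrocyte lineage markers tested was called, and their summed level (log2 of the sum of the signals) ran from 10.74 to 10.87 on day 8 and from 10.90 to 10.97 on day 15. MBP, a myelin protein, differed by 0.10. SOX10 differed by 0.11, but most of its arrays were not well above background on either day, so that difference cannot be read. The summed level of the dividing and progenitor list ran from 14.02 to 14.32 on day 8 and from 14.70 to 14.91 on day 15. Such sums lean on the brightest probes of a list. Of the 7 progenitor and dividing cell markers, 5 were lower and 2 higher on day 15, with a median log2 fold change of -0.18. Of 6 astrocyte markers 1 was called, GJA1, which was well above background on 1 array of day 8 and 0 of day 15; their summed level ran from 6.70 to 7.09 and then from 6.73 to 6.96. The part of any of these markers in the fall of the proneural and OLIG genes was not tested.

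On day 8, at the end of exposure, NEUROG1 was lower after 100 nM rotenone, NEUROD1 and NEUROD2 were higher after 50 nM for 24 h, and OLIG1, OLIG2 and ATOH8 overlapped with DMSO after every exposure. At 100 nM for 24 h, 1 of the 9 genes was called, against 3.45% of all genes, and 1 call says little about the group. That gene was NEUROG1, at 8.70, 8.36 and 8.45 against 9.11, 9.34 and 9.43 in DMSO. Every treated array was below every DMSO array, and the log2 fold change was -0.79 ± 0.19 (limma adjusted p = 0.010), a 1.73-fold fall. Within slides 1, 2 and 3 the difference was -0.40, -0.98 and -0.99. With slides 2 and 3 alone it was -1.01 with an adjusted p of 0.15.

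The other exposures gave NEUROG1 values in between. It read 8.88, 8.90 and 8.83 after 50 nM for 24 h and 8.91, 8.59 and 8.81 after 50 nM for 12 h. All 6 arrays lay below the DMSO arrays, with log2 fold changes of -0.42 (95% confidence interval -0.82 to -0.03) and -0.52 (-0.92 to -0.13), neither called (limma adjusted p = 0.21 and 0.13). NEUROG2 read 7.71, 7.91 and 7.90 after 100 nM, all below DMSO; its log2 fold change of -0.35 ± 0.10 had an adjusted p of 0.033 but was under the fold threshold. After 50 nM it differed by -0.22 at 24 h and -0.03 at 12 h.

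At 50 nM for 24 h, 3 of the 9 genes were called, against 2.8% of all genes: NEUROD1, NEUROD2 and NEUROD6, the last without a readable signal. NEUROD1 read 11.36, 11.77 and 11.27 against 10.92, 10.86 and 10.81 in DMSO. The groups did not overlap, and the log2 fold change was 0.60 ± 0.14 (limma adjusted p = 0.013), a 1.52-fold rise just over the threshold. Without the second 50 nM array it was 0.44 with an adjusted p of 0.074, and without the third DMSO array it was 0.57 with an adjusted p of 0.051. NEUROD2 read 8.16, 8.01 and 8.14 against 7.22, 7.24 and 7.68, again without overlap, for a log2 fold change of 0.72 ± 0.22 (limma adjusted p = 0.048). When the slide entered the model as a block instead of being corrected for beforehand, the adjusted p of NEUROD2 was 0.080, and without any 1 of the 3 rotenone arrays, or the first or second DMSO array, it was between 0.082 and 0.17. NEUROD4 read 10.15, 10.02 and 9.91 against 9.52, 9.45 and 9.42, a log2 fold change of 0.57 ± 0.23 that was not called (limma adjusted p = 0.17).

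**Figure D3:**
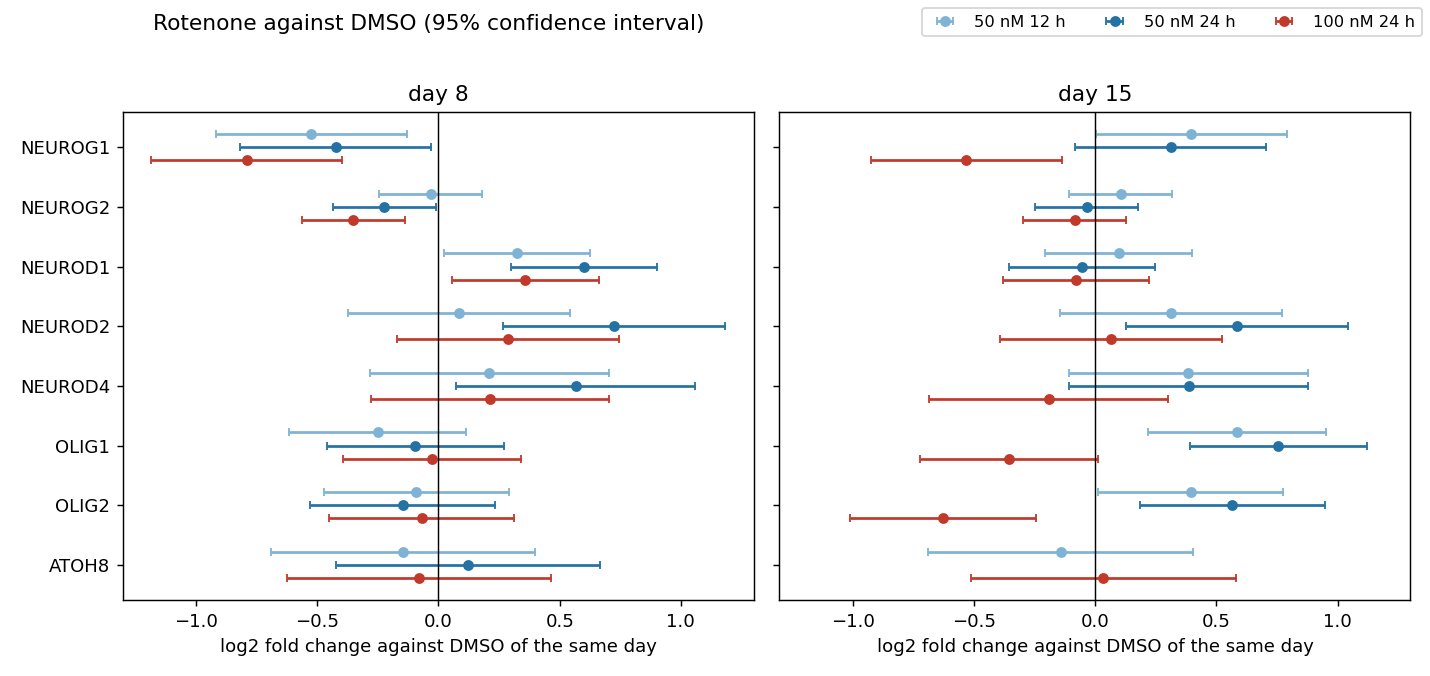
Log2 fold change of 8 genes against DMSO of the same day (horizontal axis) with 95% confidence intervals, for 3 exposures on day 8 (left) and day 15 (right); n = 3 arrays a group. NEUROD6, and ATOH8 after 50 nM for 24 h on day 15, are left out because no array of a group was well above background. The other day 15 points of ATOH8 and those of NEUROD2 are near the limit of the measurement. On day 8 the NEUROG1 estimates lie below 0 and the NEUROD1 estimates above it; on day 15 OLIG1 and OLIG2 lie above 0 after 50 nM and below 0 after 100 nM.

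After 100 nM for 24 h the same 3 genes were less displaced. NEUROD1 read 11.46, 11.09 and 11.12, above every DMSO array, with a log2 fold change of 0.36 (95% confidence interval 0.06 to 0.66; limma adjusted p = 0.14). NEUROD2 and NEUROD4 differed by 0.29 and 0.21 and overlapped with DMSO. At 12 h of 50 nM, 0 of the 9 genes were called in limma, against 1.75% of all genes, and 2 of the 9, NEUROG1 and NEUROD1 (0.32), had an unadjusted p under 0.05, as had 16.8% of all genes. Between 24 h and 12 h of 50 nM, 0 of the 9 were called against 0.226% of all genes, with 2 at an unadjusted p under 0.05 (10.9% of all genes), NEUROD2 and the unreadable NEUROD6; NEUROD2 differed by 0.64 (95% confidence interval 0.18 to 1.1; adjusted p = 0.24). Between 100 nM and 50 nM at 24 h, 0 of the 9 were called against 0% of all genes, and 0 of the 9 had an unadjusted p under 0.05, against 4.17%. The interval of that difference ran from -0.76 to 0.03 for NEUROG1 and from -0.54 to 0.06 for NEUROD1.

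On day 8 OLIG1 read 12.53, 12.29 and 12.19 after 50 nM for 12 h, 12.37, 12.50 and 12.61 after 50 nM for 24 h and 12.37, 12.62 and 12.69 after 100 nM. All of these overlapped with DMSO, and the differences lay between -0.25 and -0.03. OLIG2 differed by -0.15 to -0.07 and ATOH8 by -0.15 to 0.12, all with overlap. The 95% confidence intervals at 100 nM ran from -0.39 to 0.34 for OLIG1, from -0.45 to 0.31 for OLIG2 and from -0.63 to 0.46 for ATOH8, the last on a dim probe.

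In the partner lists a few genes moved on day 8. Of all genes, 3.45% were called at 100 nM and 2.8% at 50 nM for 24 h, and so few calls say little about a list. At 100 nM, HES5 (-0.73) and HEY1 (-0.74), Notch-driven repressors of proneural genes, were the 2 of 10 HES and HEY genes called (limma adjusted p = 0.0014 for each). NHLH1 (0.64), the 1 of 15 other neural bHLH genes called, and the Notch modifier MFNG (0.77) were the 2 of 23 proneural targets called. At 50 nM for 24 h, 0 of 10 HES and HEY genes were called; MFNG (0.81), NHLH1 (0.67) and CXCR4 (0.62) rose and the neuronal RNA-binding protein ELAVL4 (-0.71) fell among the 23 targets. None of 7 E and Id proteins was called at either dose. The medians of these 4 lists of partners, repressors, relatives and targets lay between -0.15 and 0.19, beside -0.02 over all genes in both comparisons. Of the marker lists, 1 of 12 oligodendrocyte lineage markers was called, SOX8 (0.82) at 50 nM for 24 h, and none of the neuron, dopaminergic, progenitor or astrocyte markers at either dose. Of the 7 progenitor and dividing cell markers tested, 3 were higher and 4 lower at 100 nM than in DMSO. Their summed level was higher on every 100 nM array than on any DMSO array, though such sums lean on the brightest probes. For MKI67, a marker of dividing cells, all 3 DMSO arrays and 1 of the 3 arrays at 100 nM were well above background. TOP2A and CCNB1, also on that list, were well above background on all 3 arrays of both groups.

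After wash-out, on day 15, 0 of the 9 genes and 0% of all genes were called against DMSO at any exposure in limma. At an unadjusted p under 0.05 there were 2 of the 9 after 100 nM (7.21% of all genes), 3 after 50 nM for 24 h (3.28%) and 3 after 50 nM for 12 h (3.47%). The 3 after 50 nM for 24 h include NEUROD2, near the limit of the measurement. It was well above background on 1 of 3 DMSO arrays and 2 of 3 treated arrays. By the looser rule that the study also used, a fold change over 1.5 with an unadjusted p under 0.01, 1 of the 9 passed in each comparison: OLIG2 (lower) after 100 nM, against 0.763% of all genes, and OLIG1 (higher) after each of the 50 nM exposures (24 h and 12 h), against 0.24% and 0.452%. These 3 comparisons share their DMSO arrays, as do those of day 8. None of the partner or marker lists had a gene called after 100 nM.

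OLIG1 read 7.12, 7.35 and 7.80 in DMSO, 8.21, 7.69 and 8.13 after 50 nM for 12 h, 8.46, 8.23 and 7.85 after 50 nM for 24 h and 6.99, 7.18 and 7.03 after 100 nM. After 50 nM for 24 h every array lay above DMSO, with a log2 fold change of 0.76 ± 0.17 (unadjusted p = 0.000385, limma adjusted p = 0.75). After 12 h the highest DMSO array overlapped with the lowest treated one; the log2 fold change of 0.59 ± 0.17 (unadjusted p = 0.0034, limma adjusted p = 0.9999) only just met the fold threshold, and in the model with the slide as a block it was 0.58 and missed it. It also missed the rule without the first DMSO array (0.41), the second DMSO array (0.54), the first treated array (0.47) or the third (0.52). After 100 nM OLIG1 differed by -0.36 (95% confidence interval -0.72 to 0.01). The slides did not agree on the size at 50 nM for 24 h: OLIG1 was 1.34, 0.88 and 0.05 above the DMSO array of slides 1, 2 and 3. Without the first DMSO array the value was 0.58, under the fold threshold, and on slides 2 and 3 alone it was 0.46. The scan name of that first DMSO array does not name DMSO, and its group rests on its label.

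OLIG2 followed the same order with a dimmer signal. It read 5.04, 5.5 and 5.54 in DMSO, 5.58, 5.81 and 5.87 after 50 nM for 12 h, 6.06, 5.99 and 5.73 after 50 nM for 24 h and 4.91, 5.11 and 4.19 after 100 nM. Both 50 nM groups lay above DMSO without overlap (log2 fold changes 0.39 and 0.57, limma adjusted p = 0.9999 and 0.9998), and the 100 nM group overlapped with it. The 100 nM difference was -0.63 ± 0.18 (unadjusted p = 0.0028, limma adjusted p = 0.49). Within slides 1, 2 and 3 it was -0.14, -0.39 and -1.35. The third 100 nM array was not well above background, and without it the difference was -0.37; without the second or the third DMSO array it was -0.55 or -0.53, each outside the looser rule. With the scanner's processed signal it was -0.16.

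The doses were also set against each other on day 15. Between 100 nM and 50 nM for 24 h, a comparison added after the values were seen, 2 of the 9 genes were called, OLIG1 and OLIG2, both lower at 100 nM. In all, 8 genes of 21239 were called, or 0.0377%. OLIG1 differed by -1.11 ± 0.17 and OLIG2 by -1.19 ± 0.18 (limma adjusted p = 0.021 for each), 2.16-fold and 2.29-fold. All 3 arrays at 100 nM lay below all 3 at 50 nM in both genes. Within slides 1, 2 and 3 the normalized difference was -1.47, -1.05 and -0.82 for OLIG1 and -1.16, -0.89 and -1.54 for OLIG2. The slide 3 value of OLIG2 rests on a 100 nM spot that was not well above background. Before normalization its median intensity minus background was 45 there and 43 after 50 nM, so no fall was seen. On slides 1 and 2 it was 22.5 against 63 and 35 against 71. OLIG1 on slide 3 had 127 against 173. The calls were not firm. In the model with the slide as a block OLIG2 was still called (adjusted p = 0.043) and OLIG1 was not (adjusted p = 0.061). Both calls were lost without the first or the second 50 nM array or the third 100 nM array, with differences of -0.91 to -1.15 and adjusted p of 0.054 to 0.18. With a larger background offset (50) the OLIG2 difference was -0.52, and when the fit held only the 6 arrays compared the adjusted p was 1 for both genes. On day 8 the same dose comparison gave 0.07 for OLIG1 and 0.08 for OLIG2.

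On day 15 the NEUROG1 group mean was also lowest after 100 nM and above DMSO after 50 nM. Unlike in the OLIG genes, it was higher after 12 h of 50 nM than after 24 h. NEUROG1 read 5.81, 5.93 and 6.13 in DMSO and 6.28, 6.18 and 6.60 after 50 nM for 12 h. After 50 nM for 24 h it read 6.41, 6.53 and 5.87, and after 100 nM 5.33, 5.87 and 5.08. It differed from DMSO by 0.40, 0.31 and -0.53, none called. Between the doses it differed by -0.84 ± 0.19 (unadjusted p = 0.000268, limma adjusted p = 0.20). NEUROD4 differed between the doses by -0.58. The groups overlapped, and within slides 1, 2 and 3 the difference was -0.53, -0.28 and -0.92. On slide 3 the median intensity minus background, before normalization, was higher at 100 nM than after 50 nM for 24 h in both genes. It was 64 against 45 for NEUROG1 and 66 against 53 for NEUROD4. NEUROD2, well above background on 2 of 3 arrays after 50 nM and 1 of 3 after 100 nM, overlapped too and was lower at 100 nM within each slide, but its size is near the limit of the measurement. NEUROG2 and NEUROD1 differed by -0.05 and -0.03 there. ATOH8 was well above background on 0 of 3 arrays after 50 nM for 24 h and on 1 of 3 after 100 nM, so it is not compared.

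**Figure D4:**
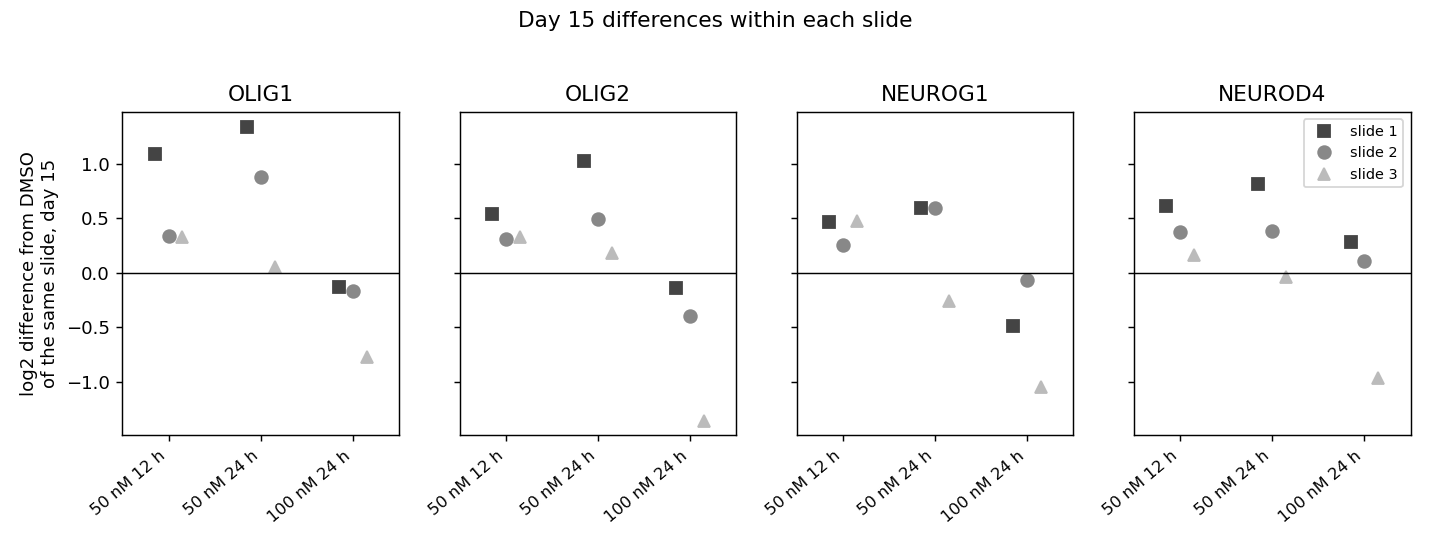
Day 15 log2 difference from the DMSO array of the same slide (vertical axis) for OLIG1, OLIG2, NEUROG1 and NEUROD4 after each exposure; squares, circles and triangles are slides 1, 2 and 3. On each slide the 100 nM point lies below the 50 nM 24 h point in all 4 genes, and slide 3 has the lowest 100 nM value. Before normalization, the slide 3 intensity minus background was higher at 100 nM than in DMSO for OLIG2, NEUROG1 and NEUROD4. It was 45 against 33, 64 against 49.5 and 66 against 50.5. For OLIG1 it was 127 against 174.5.

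Whether the response to rotenone differed between the days was tested as an interaction, the day 15 difference from DMSO minus the day 8 difference. None of the 9 genes was called in limma at 100 nM for 24 h, 50 nM for 24 h or 50 nM for 12 h, against 1.92%, 1.61% and 0.847% of all genes. At an unadjusted p under 0.05 there were 3, 5 and 2 of the 9, against 14.4%, 13.9% and 11.3% of all genes, and the unreadable NEUROD6 is among the 3 and the 5. Among the genes with a readable signal OLIG1 had the lowest adjusted p, at 50 nM for 24 h, with 0.85 ± 0.25 (adjusted p = 0.081). NEUROD1 had -0.66 ± 0.20 there (adjusted p = 0.10), and NEUROG1 had 0.92 ± 0.27 at 50 nM for 12 h (adjusted p = 0.12).

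The genes with the most similar pattern over the 24 arrays, by Pearson correlation among 12852 genes well above background on all of them, were listed for the 5 members measured on every array. For NEUROG1 they were OLIG1, S1PR3 and VEGFD (r = 0.98 each), and for OLIG1 they were PAPPA, VEGFD and TMEM158 (0.99 each). For NEUROD4 they were VEGFD, CYFIP1 and HS3ST5 (0.99 each). NEUROD1 lay nearest to CHSY1 (0.99), GTF3C6 (0.99) and WFIKKN1 (0.98). NEUROG2, with little change between the days, had lower values, with PHIP (0.83), CRBN (0.83) and RSBN1L (0.82) first. OLIG1 is thus the nearest gene to NEUROG1, and VEGFD is near to 3 of the 5 members. The 12 arrays of each day lie apart in NEUROG1, NEUROD1, NEUROD4 and OLIG1, so these values mostly restate the fall between the days.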

How the data were processed

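The 24 single-colour arrays (Agilent SurePrint G3 Human v2, Cy3; 3 per group, 8 groups) were read from the deposited scanner files, in which the authors' Feature Extraction software (11.5.1.1 per the labels; 11.5.1.1 or 12.0.0.7 per the file headers) gives each spot's median and processed intensity and marks for flags, saturation and signal well above background. The authors also deposited a log2 table of normalized values (normexp, quantile, ComBat), used as an alternative; 19615 of its 21733 identifiers matched a named probe and 8 of the 9 genes were in it. No column of the authors' own comparisons was used.

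From the median intensities, following the study's methods, normexp background correction (offset 0), quantile normalization and a parametric ComBat adjustment of the repeated slide were computed (R 4.3.3, limma 3.58.1). Spots had to exceed 1.1 times each array's 95th percentile among its 308 negative controls on at least 3 arrays; flagged values were removed and the probes of a gene averaged. ComBat treats the adjustment as known; an alternative with the slide as a block does not. limma was fitted to all 24 arrays with 8 group means (16 residual degrees of freedom; two-sided, Benjamini-Hochberg over 21239 genes). Precision is limited by the number of arrays. The scripts were tested on simulated data.

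The replicate number is the slide. Before the ComBat adjustment, deviations from the group mean of same-numbered arrays correlated at 0.17 or more in all 84 pairs. The median was 0.46, against -0.35 in 168 pairs of different number. The offset of slide 1 enters these values, so pairing beyond that slide was not tested. The scan name of 1 day 15 DMSO array does not name DMSO; its group rests on its label. Named were all 9 genes, up to 3 called genes per direction of each marker or partner list, and the 3 genes most correlated with each member. The members and lists were chosen with earlier results of these data known, and the day 15 comparison of the doses was added after its values were seen. Promoters came from RefSeq (GRCh38.p14). Figures were drawn with matplotlib.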

Additional observations from a re-analysis of the deposited data

How the results depend on the processing

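Up to 17 alternatives were run for each comparison and 23 for each interaction, and no value changed sign where it had been called. The fall of OLIG1, OLIG2, NEUROD4, NEUROD2, NEUROG1 and NEUROD1 between the days in DMSO was called under all 17, with 6 to 8 of the 9 genes called in each; ATOH8 was not called with a normexp offset of 50 (-0.44) or on slides 2 and 3 only (-1.22, adjusted p = 0.054). NEUROG1 after 100 nM on day 8 was called under 16 of 17, and NEUROD1 and NEUROD2 after 50 nM for 24 h under 11 and 5.

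Other counts of genes called depended on the processing, and the cause was not tested. For 100 nM against DMSO on day 8 (1 gene), slides 2 and 3 only gave 0. For 50 nM for 24 h on day 8 (3 genes), an offset of 50 gave 1 (NEUROD1), while no batch correction, slides 2 and 3 only, and a fit of only the arrays compared each gave 0. For 100 nM against 50 nM on day 15 (2 genes), the processed signal, scaling to the 75th percentile, no batch correction, slides 2 and 3 only, and a fit of only the arrays compared each gave 0; an offset of 50 gave 1 (OLIG1) and the authors' normalized values 1 (OLIG2). For the interaction at 50 nM for 24 h (0 genes), the processed signal gave 1 (OLIG2), an offset of 50 gave 2, probes well above background 1 (OLIG1) and the authors' values 1 (NEUROD6); at 12 h an offset of 50 gave 1 (NEUROG1).

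By the looser rule on day 15 (1 gene in each comparison), 100 nM gave 0 with the processed signal, an offset of 50, 75th percentile scaling or only the arrays compared. For 50 nM for 24 h, the processed signal and 75th percentile scaling gave 2 each (OLIG1 and OLIG2), and slides 2 and 3 or only the arrays compared gave 0. For 50 nM for 12 h, the processed signal gave 2, and an offset of 50, 75th percentile scaling, no batch correction, slides 2 and 3, only the arrays compared and the authors' values gave 0 each.

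With the replicate block in place of ComBat, 1 gene (OLIG2) was called for 100 nM against 50 nM on day 15, 0 genes passed the looser rule after 50 nM for 12 h, NEUROD2 at 50 nM for 24 h on day 8 and the unreadable NEUROD6 between the days lost their calls, and the other counts stayed within 1.5 times.

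Leaving out 1 array at a time gave 1 to 3 genes for 50 nM for 24 h on day 8, 0 to 1 for 100 nM on day 15 (OLIG2 without the second 100 nM array), 0 to 3 for 100 nM against 50 nM on day 15, and 0 to 1 for the interactions at 50 nM for 24 h and for 12 h. By the looser rule it gave 0 to 2 (100 nM), 0 to 3 (50 nM for 24 h) and 0 to 1 (50 nM for 12 h).

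Over all genes, 2586 were called between the days, 1459 with an offset of 50, 1604 on slides 2 and 3. For 100 nM on day 8 there were 733, against 396 with the offset, 407 without batch correction and 260 on slides 2 and 3; for 50 nM for 24 h 595, against 327, 332 and 213; for 50 nM for 12 h 372, against 68 to 586 over the settings; for 24 h against 12 h 48, against 0 to 138; and for 100 nM against 50 nM on day 15 8, against 0 to 20. The processed signal moved the median of all genes from -0.04 to 0.15 between the days and from -0.02 to 0.10 at 100 nM on day 8. Signal over background limits the day 15 values of NEUROD2 and ATOH8; the fall of NEUROD2 between the days ranged from -4.40 to -1.71.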
